A study of Mus musculus with 16 samples.

Results

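Chemokines are small secreted proteins that guide white blood cells, and chemokine receptors are the cell-surface receptors that read them. The genes described here are the protein-coding mouse genes whose symbol begins with Ccl, Cxcl, Ccr or Cxcr and a digit, together with Cx3cl1, Cx3cr1 and Xcl1, that had at least 20 counts over the 16 libraries. They were 40 of the 54838 genes of the count table, namely 29 ligands (10 CXC ligands, 17 CC ligands, Cx3cl1 and Xcl1) and 11 receptors (4 CXC receptors, 6 CC receptors and Cx3cr1). Before these filters the symbols gave 55 genes, of which 12 protein-coding genes were under the count minimum and 3 were not protein-coding in the annotation. Cxcl11, another ligand of Cxcr3, is one of those 3, because its gene in this mouse reference is a polymorphic pseudogene.

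RNA of liver tumors and of the liver around them (peri-tumor) was sequenced from 8 mice, 4 libraries in each of 4 groups. The groups were TCM tumor, TCM peri-tumor, control tumor and control peri-tumor, where TCM stands for feeding with a traditional Chinese medicine decoction. All 8 mice, controls included, carry the genotype HrasG12V, an active form of the Ras oncogene, and every label gives 3 months without saying whether that is an age or a duration. The treatment label names Ras transgenic mice together with DEN, a liver carcinogen, without saying which mice received it, and the promoter that drives the transgene was not stated in those labels. Each mouse gave both tissues, and the number after a group's name (control tumor 4 and control peri-tumor 4, for example) is the number of that mouse within its treatment. P-values measure the spread between libraries within a group, estimated over the 4 groups together. The main fit has no term for the mouse, so it does not use the pairing of the tissues. In bulk tissue fewer cells of a type and less RNA per cell cannot be told apart.

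CXC and CC chemokines are named for the spacing of their first cysteines. In the liver, hepatocytes, sinusoidal endothelium, stellate cells and resident macrophages (Kupffer cells) can all make them. CXC ligands of the Cxcl1 kind draw neutrophils, the interferon-induced Cxcl9 and Cxcl10 draw T cells through Cxcr3, Ccl2 draws monocytes through Ccr2, and Cxcl12 holds Cxcr4-bearing cells in place.

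Totals were 13947483 to 16194224 counts per library, so that 1 count was worth 0.0597 to 0.0756 CPM (counts relative to library size, scaled by the TMM factors of edgeR). The summed level of 7 hepatocyte markers was 74092 to 191000 CPM in the 16 libraries, so hepatocyte RNA was abundant in all of them. Markers of immune cells were uneven between libraries. The 8 neutrophil markers (S100a8, S100a9 and others) summed to 135 CPM in control tumor 4, against 5.66 to 10.4 CPM in the other 3 control tumors and 2.27 to 15.3 CPM in the other groups. The 13 T and NK cell markers summed to 28.6 CPM in TCM tumor 2 and 25.0 CPM in control tumor 3, against 3.49 to 16.5 CPM in the other 14 libraries. The first 2 principal components of all tested genes placed control peri-tumor 4 away from the other control peri-tumor libraries.

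Many of these genes lie side by side. With neighbours less than 500000 bases apart counted together, 24 of the 40 were in 7 clusters (annotation of the GRCm38 build). Cxcl5, Cxcl3, Cxcl1 and Cxcl2 span 146.6 kb at chr5:90759360-90905938, and Cxcl9 and Cxcl10 lie 27.5 kb end to end at chr5:92321347-92348889. A pair of CC ligand clusters on chromosome 11 hold Ccl2, Ccl7, Ccl11 and Ccl8 (chr11:82035571-82116799) and Ccl5, Ccl9, Ccl6, Ccl3 and Ccl4 (chr11:83525778-83664683). The receptor genes Ccr9, Cxcr6, Ccr1, Ccr3 and Ccr2 share chr9:123678439-124113557.

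The DNA before the start of 7 ligand genes is shown. Cxcl1, Cxcl2, Cxcl3 and Ccl20 are textbook targets of NF-kB, Cxcl9 and Cxcl10 are textbook targets of interferon, and Cxcl12 is shown because it was the gene whose tumor effect was called different between the treatments. Each is the coding-strand stretch that ends 1 base before the start in RefSeq (GRCm38.p6), 5′ to 3′. Capitals mark matches to GGNNTTTCC, a short form of the NF-kB site, or to GAAANNGAA, a short form of the interferon response element, each read on both strands.
Cxcl1 (chr5:90891135-90891244, plus strand): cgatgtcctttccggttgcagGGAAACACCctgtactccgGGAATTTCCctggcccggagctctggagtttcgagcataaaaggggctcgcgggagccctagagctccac
Cxcl2 (chr5:90903789-90903898, plus strand): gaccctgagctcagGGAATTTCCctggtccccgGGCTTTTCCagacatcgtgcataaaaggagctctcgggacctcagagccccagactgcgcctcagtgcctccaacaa
Cxcl3 (chr5:90785991-90786100, plus strand): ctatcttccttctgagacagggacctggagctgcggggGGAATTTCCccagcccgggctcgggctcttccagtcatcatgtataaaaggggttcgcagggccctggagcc
Cxcl9 (chr5:92328080-92328269, minus strand): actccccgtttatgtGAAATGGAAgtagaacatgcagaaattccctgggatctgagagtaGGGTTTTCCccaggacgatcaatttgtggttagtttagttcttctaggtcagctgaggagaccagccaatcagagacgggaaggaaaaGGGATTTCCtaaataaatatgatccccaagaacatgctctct
Cxcl10 (chr5:92348890-92349109, minus strand): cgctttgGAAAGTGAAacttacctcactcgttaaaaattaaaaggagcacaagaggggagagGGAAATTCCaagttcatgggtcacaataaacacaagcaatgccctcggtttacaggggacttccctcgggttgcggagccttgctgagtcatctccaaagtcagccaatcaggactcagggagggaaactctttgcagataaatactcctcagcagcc
Ccl20 (chr1:83116656-83116765, plus strand): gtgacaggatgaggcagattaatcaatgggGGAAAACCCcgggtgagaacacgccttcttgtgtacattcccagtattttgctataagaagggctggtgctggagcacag
Cxcl12 (chr6:117168425-117168534, plus strand): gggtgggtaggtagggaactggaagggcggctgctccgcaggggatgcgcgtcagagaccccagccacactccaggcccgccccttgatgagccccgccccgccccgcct

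Cxcl1, Cxcl2 and Cxcl3 each hold the same 9 letters GGAATTTCC, which begin 70, 96 and 72 bases before their starts. Cxcl9 and Cxcl10 hold a match of each kind, and Cxcl12 has neither in its 250 bases. RefSeq windows were found for 29 of the 40 genes (35 windows). In the 250 bases before the start, the NF-kB letters occurred in 8 of these 35 windows and in 4.93% of all 32851 windows. The 8 were from 8 of the 29 genes (Cxcl1, Cxcl2, Cxcl3, Cxcl9, Cxcl10, Ccl20, Ccl9 and Ccr3). The interferon letters occurred in 6 of the 35 windows, from 6 of the 29 genes (Cxcl9, Cxcl10, Cxcl14, Ccl3, Ccl19 and Ccr2), and in 7.13% of all windows. These are matches of letters, and no binding was measured.

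Levels were compared between genes per gene length, from the authors' FPKM (fragments scaled by a gene length and library size). The FPKM imply a length of 12950 bases for Cxcl12, whose longest annotated transcript has 5627. For Ccl9 the lengths are 3223 and 3006 bases. The order of genes depends on these lengths. In CPM, Cxcl12 had a higher mean than Ccl9 in TCM peri-tumor (162 against 81.0) and in control peri-tumor (259 against 79.1). Ccl9, a CC ligand known from rodents that acts through Ccr1, had the highest mean in every group, at 42.3 ± 8.04 FPKM in TCM tumor, 23.3 ± 1.81 in TCM peri-tumor, 33.4 ± 6.33 in control tumor and 24.2 ± 2.90 in control peri-tumor (SD, n = 4 each). Cxcl12 was second in both peri-tumor groups, at 11.6 ± 1.48 FPKM in TCM peri-tumor and 19.8 ± 3.67 in control peri-tumor. In control peri-tumor the ranges of Ccl9 (20.7 to 27.6 FPKM) and Cxcl12 (14.9 to 23.6 FPKM) overlapped, so by FPKM they do not differ beyond their spread. Cxcl9 was second in both tumor groups, with 6.85 to 64.2 FPKM in TCM tumor and 10.4 to 32.7 FPKM in control tumor, against 33.5 to 51.6 FPKM for Ccl9 in TCM tumor and 28.8 to 42.2 FPKM in control tumor, so Ccl9 and Cxcl9 overlapped in both. In TCM tumor the range of Cxcl9 also took in that of Cxcl1 (7.47 to 8.66 FPKM). Cxcr4 led the receptors in tumors, with 2.34 ± 1.24 FPKM in TCM tumor and 2.96 ± 2.03 FPKM in control tumor (SD, n = 4 each). In the liver around tumors Cxcr4 had 0.321 ± 0.148 FPKM in TCM peri-tumor and 0.344 ± 0.223 FPKM in control peri-tumor, and Cxcr3 had 0.264 ± 0.0497 FPKM in TCM peri-tumor and 0.420 ± 0.212 FPKM in control peri-tumor. The ranges of Cxcr4 and Cxcr3 overlapped in both peri-tumor groups.

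Of the 40 genes, 28 had enough counts to be tested across all 14865 tested genes with edgeR's quasi-likelihood test, and a gene is called at a Benjamini-Hochberg adjusted p under 0.05. In TCM mice 15 of the 28 rose in tumor against peri-tumor, where 17.3% of all tested genes rose, and 2 fell, where 15.6% of all genes fell. In control mice 13 of the 28 rose, against 22.0% of all tested genes, and 4 fell, against 21.2%. The median log2 fold change of the 28 was 1.86 in TCM mice and 0.89 in control mice, and both medians stay the same with the genes that had 0 counts in peri-tumor set at their lower bound. Over all tested genes that median was 0.0043 in TCM mice and 0.001 in control mice. The 10 genes called higher in tumors in both treatments were Ccl2, Ccl4, Ccl20, Cxcl3, Cxcl9, Cx3cl1, Ccr2, Ccr7, Cx3cr1 and Cxcr4. Without both libraries of control mouse 4, 29 of the 40 were tested. In that fit 19 of the 29 rose and 2 fell in TCM mice, where 19.4% and 16.7% of all 15027 tested genes did, and 9 rose and 5 fell in control mice, where 20.2% and 21.7% did.

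**Figure D1:**
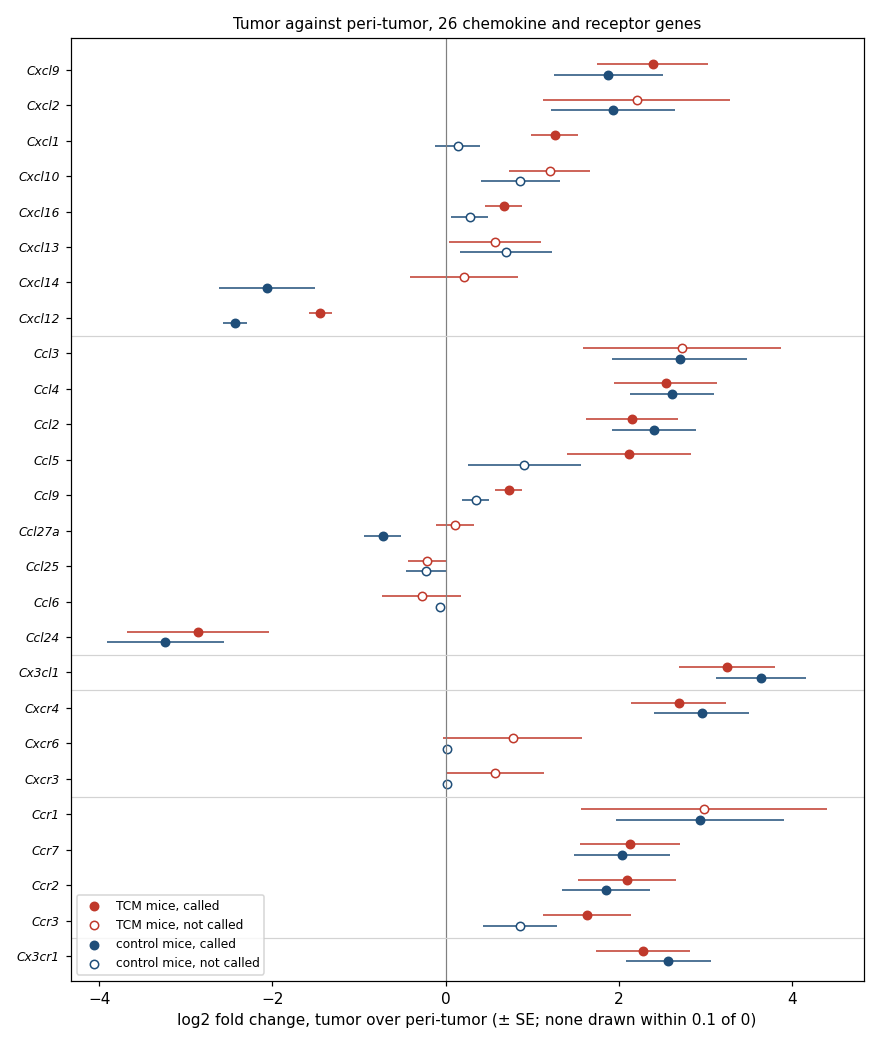
Log2 fold change of tumor over peri-tumor for 26 chemokine and receptor genes, TCM mice in red above control mice in blue, with bars of 1 SE and filled points for genes called at an adjusted p under 0.05. Gene groups run from CXC ligands at the top to Cx3cr1 at the bottom; Cx3cl1 and Cxcr4 lie beyond 2.6 in both treatments, and Cxcl12 and Ccl24 lie below -1.4 in both.

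Cxcl12, the ligand of Cxcr4, was lower in every tumor than in any peri-tumor liver. It had 63.9, 68.9, 47.0 and 56.9 CPM in TCM tumor, against 163, 166, 147 and 169.6 CPM in TCM peri-tumor. In control mice its level was 49.4, 49.0, 41.0 and 52.3 CPM in tumor, against 284, 290.4, 257 and 204 CPM in peri-tumor. The groups did not overlap in either treatment. The log2 fold change was -1.45 ± 0.14 in TCM mice (SE, edgeR quasi-likelihood test, adjusted p = 2.18e-06) and -2.43 ± 0.14 in control mice (adjusted p = 2.55e-08), so that the level was 2.73-fold and 5.40-fold lower. Markers of endothelium and of stellate cells are given because both are known sources of Cxcl12. Of the endothelial markers 16.7% fell in TCM mice, near the share of all tested genes, and 50% fell in control mice. Of the stellate cell and fibroblast markers 42.9% rose in each treatment, while 28.6% fell in TCM mice and 14.3% in control mice. Over all tested genes 17.3% rose and 15.6% fell in TCM mice, and 22.0% rose and 21.2% fell in control mice. Of 6 sinusoidal endothelial markers, 0 rose and 1 fell in TCM mice, and 0 rose and 3 fell in control mice, with sums of 79.6 to 207 CPM in TCM tumor, 133 to 210 in TCM peri-tumor, 147 to 185 in control tumor and 186 to 340 in control peri-tumor. Of 7 stellate cell and fibroblast markers, 3 rose and 2 fell in TCM mice, and 3 rose and 1 fell in control mice, with sums of 174 to 229 CPM in TCM tumor, 146 to 185 in TCM peri-tumor, 223 to 334 in control tumor and 97.8 to 174 in control peri-tumor. The part of these cells in the Cxcl12 result was not tested.

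Cxcl14, a chemokine of epithelia, fell in tumors of control mice, while in TCM mice its tissues overlapped. It had 2.37, 0.682, 0.577 and 5.82 CPM in TCM tumor, against 3.17, 1.42, 1.74 and 1.79 CPM in TCM peri-tumor, ranges that overlap (log2 fold change 0.21 ± 0.62, adjusted p = 0.83 by edgeR). Control tumors had 2.92, 3.46, 4.50 and 7.04 CPM, against 22.4, 6.23, 20.2 and 26.4 CPM in control peri-tumor. Tumor was the lower tissue in 4 of 4 control mice (log2 fold change -2.06 ± 0.56, adjusted p = 0.00718 by edgeR), although control peri-tumor 2 was below control tumor 4. The difference between the treatments is tested further on.

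The 4 neighbours on chromosome 5 that draw neutrophils differed in which comparisons they passed. Cxcl1, by far the highest of them, had 21.0, 23.9, 22.0 and 20.9 CPM in TCM tumor, against 4.69, 10.5, 14.4 and 7.10 CPM in TCM peri-tumor, with no overlap (log2 fold change 1.26 ± 0.27, edgeR adjusted p = 0.00213). In control mice Cxcl1 had 26.8, 32.8, 34.6 and 22.3 CPM in tumor, against 17.7, 25.5, 33.7 and 28.6 CPM in peri-tumor. These ranges overlap, and the log2 fold change of 0.14 ± 0.26 did not pass the test (adjusted p = 0.694).

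Cxcl3 was not counted once in the 8 peri-tumor libraries and was counted in all 8 tumors. It had 5.35, 0.186, 0.289 and 0.890 CPM in TCM tumor and 0.507, 0.970, 0.707 and 4.66 CPM in control tumor. Set against 3 counts, the floor for the 4 peri-tumor libraries together, it was at least 34.7-fold higher in TCM tumor and at least 36.9-fold higher in control tumor (111 counts in all). One library carried most of each sum. Without TCM tumor 1 the bound is at least 8.79-fold, and without control tumor 4 it is at least 15-fold. The adjusted p from edgeR was 0.0217 in TCM mice and 0.0154 in control mice, and without both libraries of control mouse 4 it was 0.0553 in control mice.

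Cxcl5 was counted in 7 of 8 tumors and in 0 of 8 peri-tumor libraries, too low for the test. It had 1.46, 0.0620, 0 and 0.205 CPM in TCM tumor (28 counts in all) and 0.254, 0.554, 0.771 and 1.55 CPM in control tumor (50 counts), against 0 counts in all 8 peri-tumor libraries. It was at least 8.99-fold higher in TCM tumor (at least 1.76-fold without TCM tumor 1) and at least 16.6-fold higher in control tumor (at least 10.9-fold without control tumor 4). DESeq2, which tested it, gave an adjusted p of 0.0111 in TCM mice and 0.00133 in control mice. With no filter on low counts, edgeR called it in control mice (adjusted p = 0.0167) and not in TCM mice. TCM tumor 1 held 24 of the 28 counts in TCM tumor.

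Cxcl2 had 0.547, 0.496, 0.289 and 0.342 CPM in TCM tumor, against 0.198, 0.0675, 0.0756 and 0 CPM in TCM peri-tumor. The groups did not overlap, but the log2 fold change of 2.21 ± 1.08 did not pass the test (edgeR adjusted p = 0.131, and 0.0185 with control tumor 4 left out of the fit). Among control libraries it had 1.20, 0.554, 0.514 and 6.81 CPM in tumor, against 0.701, 0.363, 0.954 and 0.349 CPM in peri-tumor. It was called higher in control tumor (log2 fold change 1.93 ± 0.72, adjusted p = 0.0404), and that call rested on control tumor 4. Without that library the log2 fold change was 0.34 (adjusted p = 0.630), without both libraries of that mouse it was 0.15 (adjusted p = 0.849), and with the mouse as a block it was 1.22 (adjusted p = 0.201). The call was also lost without control peri-tumor 1, 2 or 4, and without TCM tumor 1 or 2. With no filter on low counts, with only the control groups in the fit and in limma-voom, which weights libraries, the adjusted p was 0.0607, 0.103 and 0.435.

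**Figure D2:**
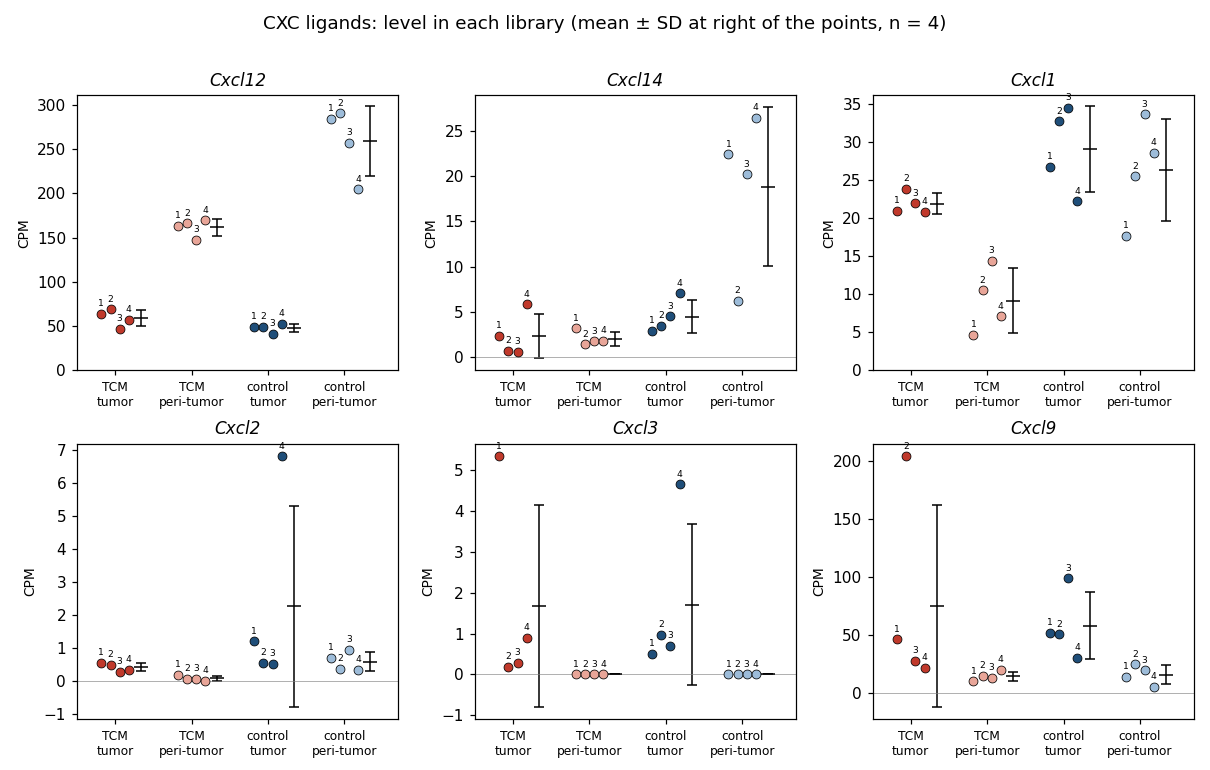
Level of 6 CXC ligands in every library, in CPM on linear axes, for TCM tumor, TCM peri-tumor, control tumor and control peri-tumor; each point is 1 library with the number of its mouse, and the bar at its right is the mean ± SD (n = 4). Cxcl12 is below 70 CPM in all tumors and above 140 CPM in all peri-tumor libraries, and single libraries stand far above their group for Cxcl2 and Cxcl3 (control tumor 4), Cxcl3 (TCM tumor 1) and Cxcl9 (TCM tumor 2).

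Of the interferon-induced ligands of Cxcr3, Cxcl9 rose in tumors of both treatments. Cxcl9 had 46.3, 204, 27.8 and 21.8 CPM in TCM tumor, against 9.85, 14.8, 12.8 and 19.6 CPM in TCM peri-tumor, without overlap (log2 fold change 2.39 ± 0.64, edgeR adjusted p = 0.00929). TCM tumor 2, the library with the highest T and NK cell marker sum, stood far above the rest, and without it the log2 fold change was 1.17 (adjusted p = 0.0629). In control mice Cxcl9 had 52.0, 50.6, 98.9 and 30.4 CPM in tumor, against 13.6, 24.6, 19.5 and 5.16 CPM in peri-tumor, again without overlap (log2 fold change 1.88 ± 0.63, adjusted p = 0.0246). The control call was lost without control tumor 3 (adjusted p = 0.0878), control peri-tumor 1 (0.0603) or control peri-tumor 4 (0.0608). Control tumor 3 was the control tumor with the most Cxcl9 and the most T and NK cell markers. The T and NK cell markers gave 0 calls in 12 tested genes in either treatment, where 17.3% (TCM) and 22.0% (control) of all tested genes rose. Their sums were 3.97 to 28.6 CPM in TCM tumor and 4.08 to 5.31 in TCM peri-tumor. In control mice they were 8.54 to 25.0 CPM in tumor and 3.49 to 16.5 in peri-tumor. The part of T and NK cells in the Cxcl9 result was not tested.

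Cxcl10, like Cxcl9, was highest in TCM tumor 2 among the TCM libraries. It had 7.60, 17.7, 5.41 and 5.0 CPM in TCM tumor against 3.37, 3.24, 5.82 and 3.20 CPM in TCM peri-tumor, and 14.2, 8.59, 11.8 and 5.43 CPM in control tumor against 7.45, 5.93, 6.93 and 1.60 CPM in control peri-tumor. The ranges overlap in both treatments and neither difference passed edgeR's test (adjusted p = 0.0603 in TCM mice and 0.140 in control mice). Without TCM tumor 3, TCM tumor 4, TCM peri-tumor 3 or control peri-tumor 4, the TCM difference was called (adjusted p of 0.0276 to 0.0474). Tumor was the higher tissue in 3 of 4 TCM mice and 4 of 4 control mice, and with the mouse as a block Cxcl10 was called in both (log2 fold change 1.05, adjusted p = 0.0467, and 0.95, adjusted p = 0.0462). Part of the Cxcl10 gene overlaps Art3 on the opposite strand, and whether the counting used strand is not stated.

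Of the remaining CXC ligands, Cxcl16, the membrane-bound ligand of Cxcr6, had 15.2, 14.8, 9.45 and 9.10 CPM in TCM tumor, against 7.60, 8.03, 6.95 and 7.93 CPM in TCM peri-tumor. The log2 fold change of 0.67 ± 0.22 passed the test (edgeR adjusted p = 0.0247) and was lost without any 1 of 4 libraries (TCM tumor 1 or 2, TCM peri-tumor 1 or 3; adjusted p of 0.0531 to 0.0763). In control mice Cxcl16 overlapped between the tissues (12.7 to 13.6 CPM in tumor, against 7.39 to 14.0 CPM in peri-tumor; adjusted p = 0.310). Its gene overlaps Zmynd15 on the opposite strand. Cxcl13, which draws B cells through Cxcr5, had 2.11 to 4.45 CPM in TCM tumor, against 0.640 to 4.76 CPM in TCM peri-tumor, and 1.67 to 5.67 CPM in control tumor, against 1.05 to 2.42 CPM in control peri-tumor, with no call in either treatment (adjusted p = 0.442 and 0.307). Without TCM peri-tumor 1, Cxcl13 was called higher in TCM tumor (log2 fold change 1.45, adjusted p = 0.0358).

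Among the CC ligands, Ccl2, the main attractant of monocytes, was higher in every tumor than in any peri-tumor liver of the same treatment. It had 2.13, 2.98, 2.16 and 1.03 CPM in TCM tumor, against 0.661, 0.405, 0.529 and 0.256 CPM in TCM peri-tumor (log2 fold change 2.15 ± 0.53, edgeR adjusted p = 0.00508). In control mice it had 3.55, 2.63, 1.74 and 8.78 CPM in tumor, against 0.509, 1.21, 0.700 and 0.698 CPM in peri-tumor (log2 fold change 2.41 ± 0.48, adjusted p = 8.54e-04). Control tumor 4 was the highest, and without it the log2 fold change was 1.73 and still called (adjusted p = 0.00289).

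Ccl4, an attractant of T cells and macrophages, had 0.425, 0.744, 0.505 and 0.479 CPM in TCM tumor, against 0.0661, 0.0675, 0.227 and 0 CPM in TCM peri-tumor (log2 fold change 2.54 ± 0.60, edgeR adjusted p = 0.00386, and 3.39 without TCM peri-tumor 3). In control mice its level was 1.08, 0.831, 1.16 and 1.79 CPM in tumor, against 0.191, 0.181, 0.318 and 0.0698 CPM in peri-tumor (log2 fold change 2.62 ± 0.49, adjusted p = 4.60e-04). Neither pair of groups overlapped. Ccl3, its neighbour and a ligand of Ccr1, had 0.346 to 4.36 CPM in control tumor, against 0.242 to 0.318 CPM in control peri-tumor, and was called (log2 fold change 2.71 ± 0.78, adjusted p = 0.0105). That call ended without control tumor 4 (log2 fold change 1.79, adjusted p = 0.0653) and in limma-voom (1.76, adjusted p = 0.0829). In TCM mice Ccl3 gave 24 counts in tumor and 3 in peri-tumor, a ratio of 7.71 with a 95% counting interval of 2.34 to 40.0, which did not pass the test (adjusted p = 0.0796, and 0.0453 with control tumor 4 left out of the fit, 0.0339 without TCM tumor 3).

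Ccl20, the ligand that draws Ccr6-bearing lymphocytes, was all but absent from peri-tumor liver. It had 0.729, 0.434, 0 and 0.821 CPM in TCM tumor, against 0, 0, 0 and 0.0640 CPM in TCM peri-tumor. That is 31 counts against 1, a ratio of 29.9 with a 95% counting interval of 4.98 to 1217 (edgeR adjusted p = 0.00643). In control mice it had 1.08, 0.831, 0.964 and 0.955 CPM in tumor, against 0 counts in the 4 peri-tumor libraries. It was at least 19.9-fold higher in control tumor when 3 counts over the peri-tumor group serve as the floor (adjusted p = 3.79e-04).

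Ccl9 rose in TCM mice by a small factor at a high level. It had 100.2, 163, 154 and 120.1 CPM in TCM tumor, against 72.3, 78.9, 87.9 and 84.8 CPM in TCM peri-tumor, with no overlap (log2 fold change 0.73 ± 0.16, edgeR adjusted p = 0.00225). Control tumors had 105.4, 89.8, 86.1 and 122 CPM, against 68.8, 71.7, 81.6 and 94.2 CPM in control peri-tumor, and the log2 fold change of 0.35 ± 0.16 was not called (adjusted p = 0.0852). Tumor was the higher tissue in 4 of 4 mice of each treatment, and with the mouse as a block the control difference was called (log2 fold change 0.35, adjusted p = 0.0415), as it was without control peri-tumor 4 (0.44, adjusted p = 0.0388).

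Ccl24, or eotaxin-2, which draws eosinophils through Ccr3, moved the other way. It had 0.182, 0.434, 0.216 and 0 CPM in TCM tumor, against 0.132, 2.29, 1.21 and 2.69 CPM in TCM peri-tumor (log2 fold change -2.86 ± 0.82, edgeR adjusted p = 0.0135, and -3.48 without TCM tumor 2). In limma-voom the TCM difference was not called (adjusted p = 0.155). Among control libraries it had 0.127, 1.18, 0.386 and 0.955 CPM in tumor, against 8.53, 7.86, 5.28 and 3.42 CPM in peri-tumor (log2 fold change -3.24 ± 0.68, adjusted p = 0.00118). The control groups did not overlap, whereas TCM peri-tumor 1 lay within the range of TCM tumor. Of the 9 Kupffer cell markers 8 were tested, and 5 fell in TCM mice and 8 in control mice. Of all tested genes 15.6% fell in TCM mice and 21.2% in control mice. The Kupffer marker sums were 38.5 to 201 CPM in TCM tumor and 251 to 324 in TCM peri-tumor. They were 125 to 191 CPM in control tumor and 502 to 1124 in control peri-tumor. Of these markers Cd209f was at 0 in every control tumor, and the part of these cells in the Ccl24 result was not tested.

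Ccl27a, a ligand of Ccr10, had 3.80, 2.49, 2.38 and 2.75 CPM in control tumor, against 5.99, 5.32, 4.45 and 3.14 CPM in control peri-tumor. It was lower in tumor in 4 of 4 control mice (log2 fold change -0.73 ± 0.21, edgeR adjusted p = 0.0120), although the ranges overlap. In TCM mice it had 3.10, 3.85, 3.03 and 2.87 CPM in tumor, against 2.58, 2.77, 3.40 and 3.20 CPM in peri-tumor (adjusted p = 0.746). Its values are uncertain, because 69.2% of its 50-base words also occur in other genes and its exons overlap Il11ra1 on the opposite strand. Ccl5, which draws T cells, was called in TCM mice, at 0.753 to 9.80 CPM in tumor against 0.680 to 1.45 CPM in peri-tumor (log2 fold change 2.12 ± 0.72, adjusted p = 0.0332). Without TCM tumor 2 it was 1.16 (adjusted p = 0.198), and the call also ended without TCM tumor 1 or TCM peri-tumor 2, 3 or 4, in limma-voom (1.40, adjusted p = 0.188) and with only the TCM groups in the fit (adjusted p = 0.0592). In control mice Ccl5 had 1.67 to 7.52 CPM in tumor, against 0.837 to 3.37 CPM in peri-tumor (adjusted p = 0.283).

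Ccl6, like Ccl9 a Ccr1 ligand known from rodents, did not differ by the test between the tissues. It had 5.83, 5.96, 3.97 and 4.31 CPM in TCM tumor, against 6.61, 6.61, 5.29 and 5.82 CPM in TCM peri-tumor (edgeR adjusted p = 0.687). In control mice it had 11.5, 9.35, 7.78 and 45.4 CPM in tumor, against 19.6, 23.7, 21.7 and 12.6 CPM in peri-tumor (adjusted p = 0.920). The control tissues overlapped through control tumor 4 alone. Without that library Ccl6 was called lower in control tumor (log2 fold change -1.04, adjusted p = 0.00146). Ccl25, the ligand of Ccr9, ranged from 1.52 to 3.7 CPM over all libraries with no call in any comparison.

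Cx3cl1, the membrane-anchored ligand that tethers Cx3cr1-bearing cells, had the largest fitted fold change in both treatments among the 26 tested genes other than Cxcl3 and Ccl20. It had 4.13, 1.24, 1.08 and 4.79 CPM in TCM tumor, against 0.264, 0.472, 0.227 and 0.192 CPM in TCM peri-tumor (log2 fold change 3.25 ± 0.56, edgeR adjusted p = 3.71e-04). In control mice its level was 3.30, 8.59, 5.85 and 3.52 CPM in tumor, against 0.318, 0.544, 0.445 and 0.349 CPM in peri-tumor (log2 fold change 3.65 ± 0.52, adjusted p = 4.41e-05). That is 9.5-fold and 12.5-fold, and no tumor overlapped with any peri-tumor library.

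**Figure D3:**
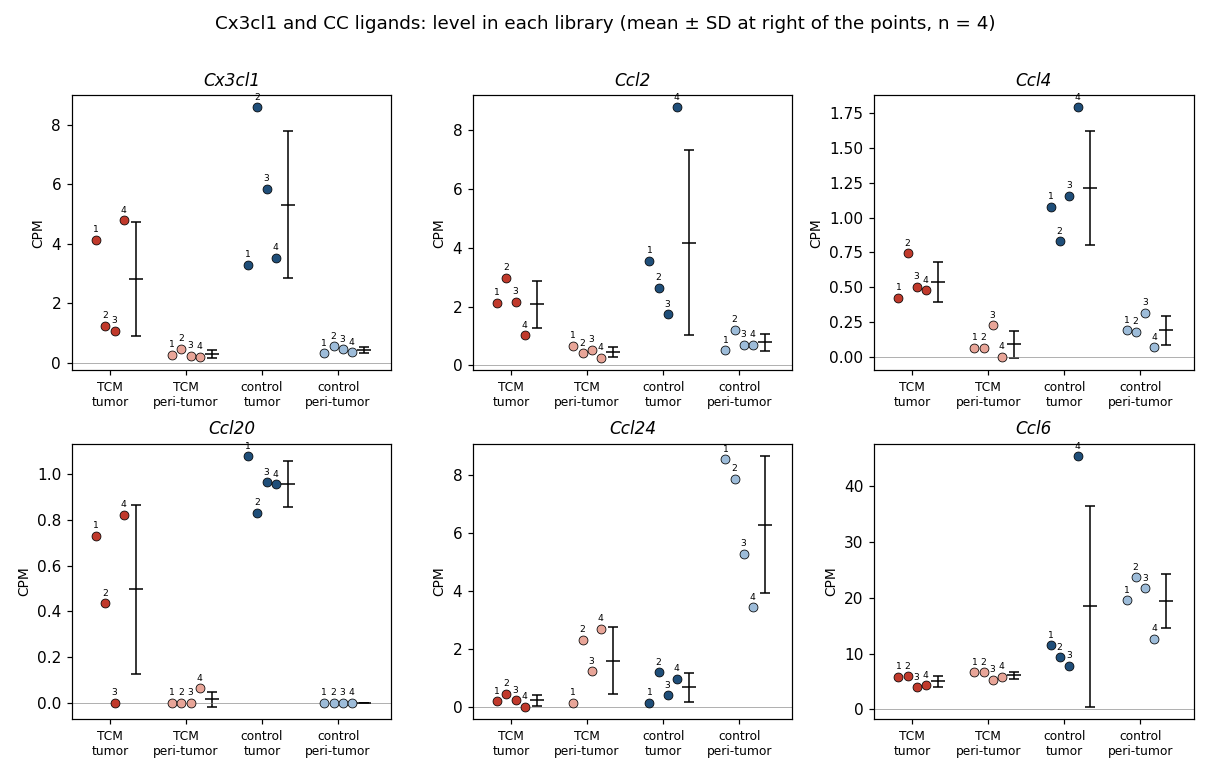
Level of Cx3cl1 and 5 CC ligands in every library, in CPM on linear axes, drawn as for the CXC ligands with TCM groups at the left; points are libraries with the number of their mouse and bars are mean ± SD (n = 4). Cx3cl1, Ccl2 and Ccl4 are higher in all tumors than in any peri-tumor library of the same treatment, Ccl20 is at 0 in 7 of 8 peri-tumor libraries, and Ccl6 in control tumor 4 stands at 45.4 CPM.

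Cxcr4, the receptor of Cxcl12, rose in tumors while its ligand fell. It had 4.86, 5.83, 3.25 and 10.7 CPM in TCM tumor, against 0.992, 0.742, 1.66 and 0.448 CPM in TCM peri-tumor (log2 fold change 2.69 ± 0.55, edgeR adjusted p = 0.00152). Control tumors had 4.12, 3.60, 7.91 and 14.0 CPM, against 1.02, 0.423, 1.78 and 0.558 CPM in control peri-tumor (log2 fold change 2.96 ± 0.55, adjusted p = 4.46e-04). The tissues did not overlap in either treatment. Without both libraries of control mouse 4 the control value was 2.25 (adjusted p = 0.00492). The other CXC receptors showed no call. Cxcr3 had 0.137 to 1.43 CPM in TCM tumor, against 0.405 to 0.595 CPM in TCM peri-tumor, and 0.386 to 1.11 CPM in control tumor, against 0.349 to 1.15 CPM in control peri-tumor. Cxcr6, which retains T and NKT cells in liver, had 0 to 2.54 CPM in TCM tumor, against 0.151 to 1.08 CPM in TCM peri-tumor, and 0.485 to 1.29 CPM in control tumor, against 0.209 to 1.27 CPM in control peri-tumor, and both receptors were highest in TCM tumor 2.

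Cx3cr1, the receptor of Cx3cl1 on monocytes and macrophages, rose with its ligand. It had 1.34, 2.05, 1.15 and 2.74 CPM in TCM tumor, against 0.397, 0.202, 0 and 0.831 CPM in TCM peri-tumor (log2 fold change 2.28 ± 0.54, edgeR adjusted p = 0.00436, and 3.09 without TCM peri-tumor 4). Among control libraries it had 3.36, 5.89, 3.99 and 5.19 CPM in tumor, against 0.446, 1.09, 0.891 and 0.628 CPM in peri-tumor (log2 fold change 2.57 ± 0.49, adjusted p = 5.13e-04). Neither pair of tissues overlapped.

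Ccr2, the monocyte receptor of Ccl2, had 4.07, 5.09, 1.23 and 4.93 CPM in TCM tumor, against 1.06, 0.877, 0.453 and 1.15 CPM in TCM peri-tumor (log2 fold change 2.09 ± 0.57, edgeR adjusted p = 0.0100). In control mice it had 9.0, 7.07, 4.50 and 16.2 CPM in tumor, against 2.99, 3.57, 3.05 and 0.488 CPM in peri-tumor (log2 fold change 1.86 ± 0.51, adjusted p = 0.00790). No tumor overlapped with a peri-tumor library of its treatment. Mouse 4 held both the highest control tumor and the lowest control peri-tumor value, and without it the control difference was 1.06 (adjusted p = 0.0506). In limma-voom the TCM difference had an adjusted p of 0.0553. Markers of recruited macrophages and monocytes rose with Ccl2, Ccr2 and Cx3cr1, 6 of 10 in TCM mice and 9 of 10 in control mice, among them Gpnmb and Itgax. Those shares were 60% and 90%, where 17.3% and 22.0% of all tested genes rose. Their sums were 198 to 361 CPM in TCM tumor against 41.1 to 58.2 CPM in TCM peri-tumor. In control mice they were 221 to 387 CPM in tumor against 64.9 to 73.1 CPM in peri-tumor. Lpl and Cd9 made up most of each sum, so the sums mainly follow these genes and not the lower markers of recruited macrophages. The part of these cells in the receptor results was not tested.

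Ccr7, the receptor that takes dendritic and T cells to lymph nodes, had 1.64, 1.49, 0.649 and 0.479 CPM in TCM tumor, against 0.331, 0.337, 0.227 and 0.0640 CPM in TCM peri-tumor (log2 fold change 2.13 ± 0.57, edgeR adjusted p = 0.00937). In control mice its level was 1.27, 0.831, 1.67 and 1.13 CPM in tumor, against 0.382, 0.0605, 0.191 and 0.558 CPM in peri-tumor (log2 fold change 2.04 ± 0.55, adjusted p = 0.00711). The tissues did not overlap. Of 4 tested dendritic cell markers, 2 rose in TCM mice (50%, against 17.3% of all tested genes) and 1 in control mice (25%, against 22.0%). Flt3 rose in both, and the part of dendritic cells in the Ccr7 result was not tested. Ccr3, the eotaxin receptor, had 0.851, 1.49, 1.15 and 0.753 CPM in TCM tumor, against 0.264, 0.0675, 0.302 and 0.704 CPM in TCM peri-tumor, and was called (log2 fold change 1.63 ± 0.51, adjusted p = 0.0217). With the mouse as a block its adjusted p was 0.0550, with TCM peri-tumor 1, TCM peri-tumor 2 or TCM tumor 2 left out it was 0.0595 to 0.0627, and without TCM peri-tumor 4 the log2 fold change was 2.30 (adjusted p = 0.00545).

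Ccr1, a receptor of neutrophils and monocytes, was called in control mice, and 1 library carried that call. It had 0.634, 0.623, 0.643 and 11.3 CPM in control tumor, against 0.255, 0.968, 0.127 and 0.349 CPM in control peri-tumor. The call in control mice (log2 fold change 2.93 ± 0.97, edgeR adjusted p = 0.0225) was lost without control tumor 4 (0.54, adjusted p = 0.562), with the mouse as a block (2.04, adjusted p = 0.0808), in limma-voom (1.53, adjusted p = 0.160) and without control peri-tumor 1 or 3, and it was 3.73 without control peri-tumor 2. In TCM mice Ccr1 had 0.912, 0.869, 0.144 and 0.411 CPM in tumor, against 0, 0.135, 0 and 0.128 CPM in peri-tumor. These groups did not overlap, and the adjusted p was 0.121, against 0.0130 when control tumor 4 was left out of the shared estimate of spread.

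Control tumor 4 stood above the other 3 control tumors for a set of genes of this kind. Its Ccr1 was 17.9 times their median, its Cxcl2 12.3 times, its Cxcl3 6.59 times, its Ccl3 5.73 times and its Ccl6 4.85 times. Ccl7, a monocyte attractant that was too low for the test, had 4.30 CPM there, against 0.190 to 0.450 CPM in the other control tumors. Its Cxcl9, Cxcl10 and Ccl5 were below the median of the other 3, at 0.584, 0.459 and 0.350 times. The same library held 135 CPM of neutrophil markers, with S100a8 at 34.4, S100a9 at 34.4, Mmp9 at 33.4 and Csf3r at 28.8 CPM, and Ly6g at 0.418 CPM. The neutrophil markers Camp (0 CPM) and Ngp (0.119 CPM) were not raised there. Among recruited macrophage markers, Gpnmb (45.1 CPM), Mmp12 (31.4), Chil3 (13.0) and Trem2 (6.03) were also highest there among control tumors. Ms4a7, Lpl and Plac8 were not the highest there. The part of neutrophils or macrophages in the chemokine values was not tested.

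**Figure D4:**
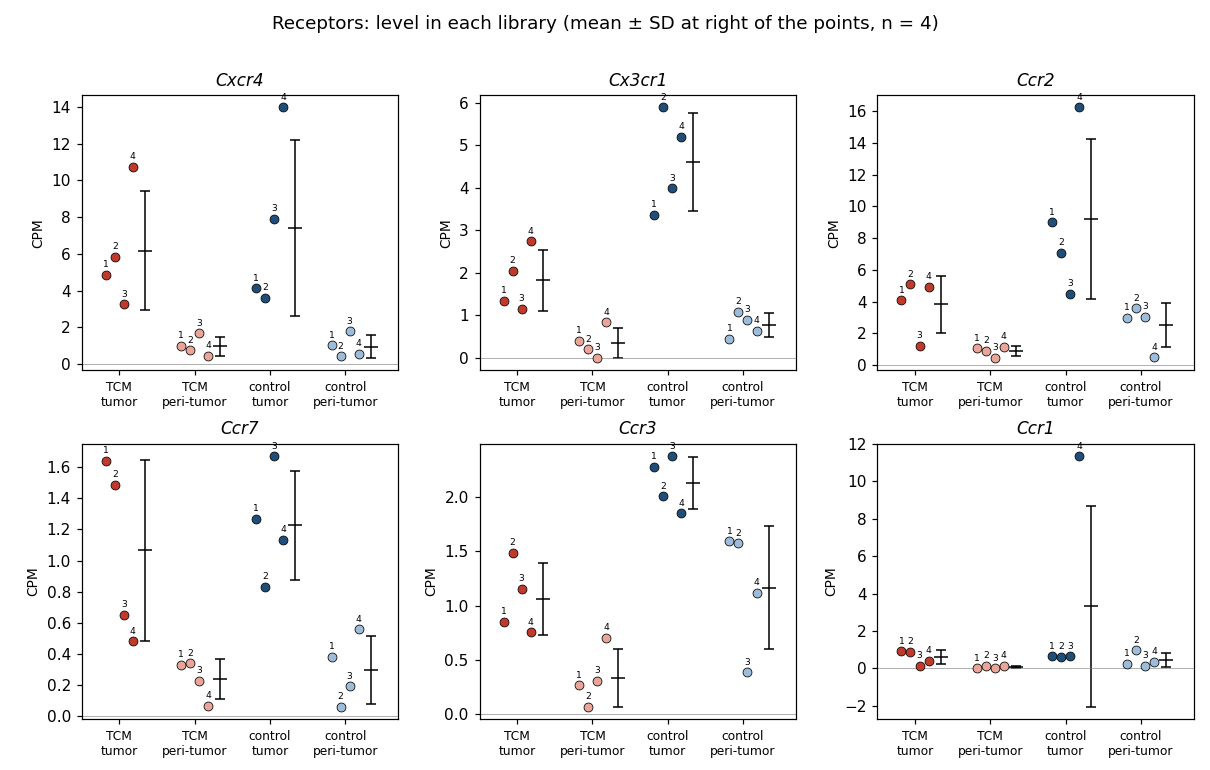
Level of 6 receptors in every library, in CPM on linear axes, with TCM tumor, TCM peri-tumor, control tumor and control peri-tumor from left to right; points are libraries with the number of their mouse and bars are mean ± SD (n = 4). Cxcr4, Cx3cr1, Ccr2 and Ccr7 are higher in tumor in both treatments, and Ccr1 in control tumor 4 stands at 11.3 CPM, above 0.623 to 0.643 CPM in the other control tumors.

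The 12 genes too low for the test add up to few counts each. Ccl8 and Ccl22, which draw monocytes and Ccr4-bearing T cells, were higher in tumor in 3 of 4 TCM mice and 4 of 4 control mice, and DESeq2 called Ccl8 in control mice (adjusted p = 0.0445). Ccr10 had 0.479 to 0.649 CPM in TCM tumor, against 0 to 0.128 CPM in TCM peri-tumor (33 counts against 3, a ratio of 10.6 with a 95% counting interval of 3.32 to 54.0; DESeq2 adjusted p = 0.00334), and 0.119 to 0.254 CPM in control tumor, against 0.0637 to 0.302 CPM in control peri-tumor. Ccl28, its ligand in epithelia, was lower in tumor in 4 of 4 TCM mice and in 3 of 4 control mice, at no more than 0.540 CPM. Ccl11, Ccl19, Ccl27b, Ccr9, Cxcr5 and Xcl1 stayed under 1.4 CPM in all libraries, and 59.1% of the 50-base words of Ccl19 and 98.1% of those of Ccl27b occur in other genes, so that their values are uncertain.

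The decoction was compared with control within each tissue. In peri-tumor liver 0 of the 28 genes were higher in TCM mice, where 6.71% of all tested genes were, and 7 were lower, where 7.35% of all genes were (edgeR's quasi-likelihood test, adjusted p under 0.05). The 7 were Cxcl1, Cxcl12, Cxcl14, Ccl6, Ccl24, Ccl27a and Ccr3. The median log2 fold change of the 28 was -0.67, against -0.0042 over all tested genes. At an unadjusted p under 0.05, 0 were higher and 10 lower in TCM, and DESeq2 called 0 higher and 9 lower, and limma-voom 0 higher and 8 lower. No share of all tested genes is given at these settings, so these counts cannot be set against a background. The number called lower was 10 of 29 tested without control mouse 4, where 11.5% of all tested genes were lower, and 3 or 4 without any 1 of control peri-tumor 1, 2 or 3 or TCM peri-tumor 1, 2 or 3, and it was 4 in a fit of the peri-tumor libraries alone. The sign was negative in 22 of 28.

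Cxcl1 was lower in every TCM peri-tumor library (4.69 to 14.4 CPM) than in any control peri-tumor library (17.7 to 33.7 CPM). The log2 fold change was -1.53 ± 0.27 (edgeR adjusted p = 0.00290), a 2.88-fold fall. Cxcl14 averaged 2.03 ± 0.780 CPM in TCM peri-tumor and 18.8 ± 8.78 CPM in control peri-tumor (SD, n = 4 each), also without overlap. Its log2 fold change of -3.20 ± 0.60 was the largest of the 7 (adjusted p = 0.00388). Cxcl12 averaged 162 ± 9.82 CPM in TCM peri-tumor and 259 ± 39.2 CPM in control peri-tumor, without overlap (log2 fold change -0.68 ± 0.13, adjusted p = 0.00475). Leaving out any 1 library did not end these 3 calls.

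Ccl6 averaged 6.08 ± 0.648 CPM in TCM peri-tumor and 19.4 ± 4.81 CPM in control peri-tumor (SD, n = 4 each) without overlap (log2 fold change -1.67 ± 0.45, edgeR adjusted p = 0.0225), and its adjusted p was 0.0514 to 0.0633 without control peri-tumor 2 or 3 or TCM peri-tumor 1, 3 or 4. Ccl24 averaged 1.58 ± 1.15 CPM in TCM peri-tumor and 6.27 ± 2.37 CPM in control peri-tumor, without overlap (log2 fold change -1.98 ± 0.62, adjusted p = 0.0452). That call was marginal: it was lost in 9 of the 16 fits that left out 1 library, among them those without TCM peri-tumor 1, 2 or 3 or control peri-tumor 1, 2 or 3, and TCM tumor 1 or 3 or control tumor 3 (adjusted p up to 0.114), with no filter on low counts (0.0649) and with only the peri-tumor groups in the fit (0.0548). Ccl27a was called at an adjusted p of 0.0499 (log2 fold change -0.66 ± 0.21) and lost its call in 14 of the 16 fits, all but those without control peri-tumor 4 or control tumor 1 (adjusted p up to 0.149), with RLE factors (0.0514), with no filter (0.0880) and with only the peri-tumor groups in the fit (0.0898).

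Of the receptors, Ccr3 had 0.0675 to 0.704 CPM in TCM peri-tumor, against 0.382 to 1.59 CPM in control peri-tumor (log2 fold change -1.77 ± 0.51, edgeR adjusted p = 0.0314). Without control peri-tumor 1 or 2 or TCM peri-tumor 1, 2 or 3 its adjusted p was 0.0719 to 0.0897, and without TCM peri-tumor 4 its log2 fold change was -2.43 (adjusted p = 0.0129). Limma-voom gave 0.0620 and the fit of the peri-tumor groups alone 0.0862.

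Other members of the family lay lower in TCM peri-tumor without a call. Cxcl2 had 0 to 0.198 CPM in TCM peri-tumor, against 0.349 to 0.954 CPM in control peri-tumor (log2 fold change -2.69 ± 1.04, edgeR adjusted p = 0.0939), without overlap, and was called without control tumor 4 (adjusted p = 0.0135), in DESeq2 (0.0362) and in limma-voom (0.0435). Ccr2 had 0.453 to 1.15 CPM in TCM peri-tumor, against 0.488 to 3.57 CPM in control peri-tumor (-1.50 ± 0.58, adjusted p = 0.0936, and -1.83, adjusted p = 0.0174, without control peri-tumor 4). Cxcl16 behaved alike, at -0.51 ± 0.22 (adjusted p = 0.120) and at -0.66 without control peri-tumor 4 (adjusted p = 0.0335).

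Of 8 tested Kupffer cell markers, 6 were called lower in TCM peri-tumor (75%), where 7.35% of all tested genes were. Of 10 markers of recruited macrophages 1 was lower (Plac8), a share of 10% that is near that of all tested genes. The Kupffer sums did not overlap, at 251 to 324 CPM in TCM peri-tumor and 502 to 1124 CPM in control peri-tumor, with control peri-tumor 4 the lowest of its group. The sums of 6 sinusoidal endothelial markers were 133 to 210 CPM in TCM peri-tumor and 186 to 340 CPM in control peri-tumor, with 0 of 6 called. The part of these cells in the 7 lower chemokine genes was not tested.

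**Figure D5:**
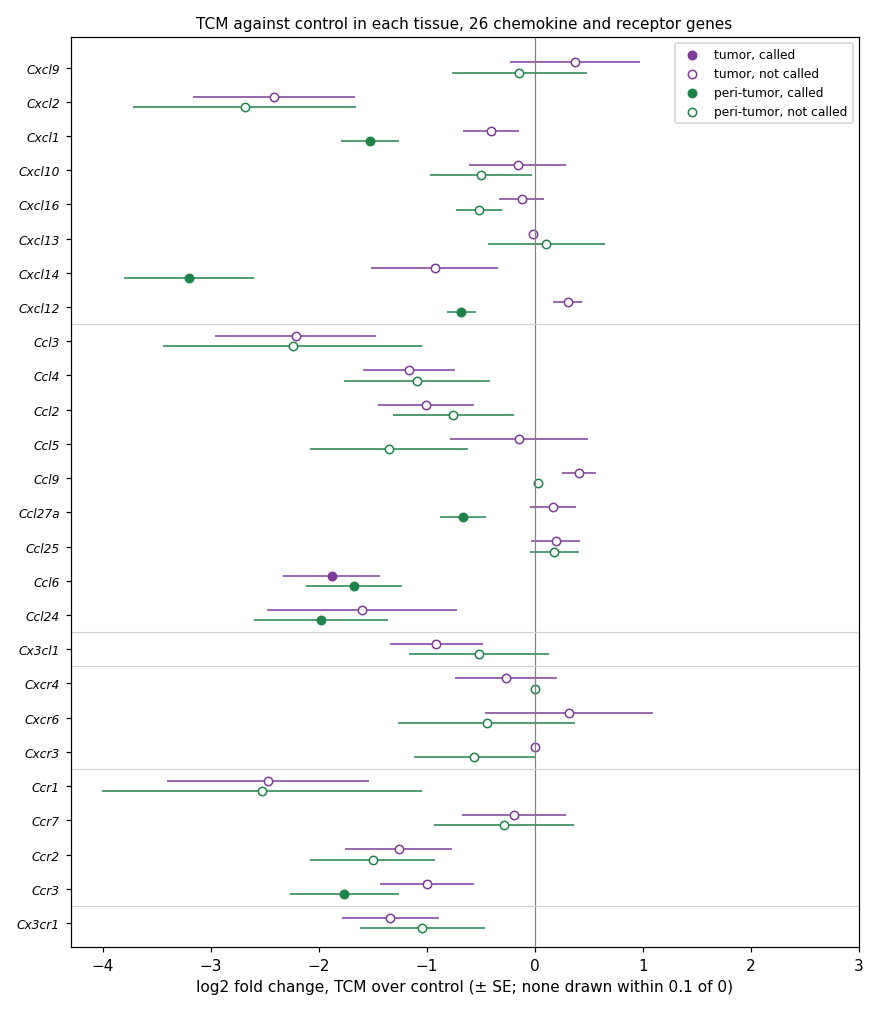
Log2 fold change of TCM over control for 26 chemokine and receptor genes, tumor in purple above peri-tumor in green, with bars of 1 SE and filled points for genes called at an adjusted p under 0.05. Most points lie left of 0 in both tissues; 7 genes are called in peri-tumor and 1 in tumor, all lower in TCM.

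In tumors 0 of the 28 genes were higher in TCM mice, where 4.55% of all tested genes were, and 1 (Ccl6) was lower, where 2.72% of all genes were. At an unadjusted p under 0.05, 2 were higher (Ccl9 and Cxcl12) and 9 lower. DESeq2 called 0 higher and 4 lower of the 40 (Ccl7 among them, which edgeR did not test), and limma-voom 0 higher and 1 lower (Cx3cr1). Here too, no share of all tested genes is given at these settings to set the counts against. The sign was negative in 22 of 28, and the median log2 fold change was -0.34, against 0.002 over all tested genes. Ccl6 was lower in every TCM tumor (3.97 to 5.96 CPM) than in any control tumor (7.78 to 45.4 CPM), with a log2 fold change of -1.88 ± 0.45 (edgeR adjusted p = 0.0223). Without control tumor 4 the value was -0.91 (adjusted p = 0.0207), and without TCM tumor 3 the call was lost (-1.78, adjusted p = 0.0699), as it was in limma-voom (-1.20, adjusted p = 0.0510) and with only the tumor groups in the fit (-1.90, adjusted p = 0.0748). The number called lower was 0 without TCM tumor 3 and 2 without control tumor 3 or TCM peri-tumor 3, and Ccl9 was called higher without TCM tumor 1 (log2 fold change 0.56, adjusted p = 0.0472) and without control mouse 4 (0.55, adjusted p = 0.0307).

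Other genes of this kind lay lower in TCM tumor without passing the test. Cx3cr1 averaged 1.82 ± 0.723 CPM in TCM tumor and 4.61 ± 1.14 CPM in control tumor (SD, n = 4 each; log2 fold change -1.34 ± 0.45, edgeR adjusted p = 0.0807), and its groups did not overlap. It was called by DESeq2 (0.0190) and limma-voom (0.0201), and by edgeR with only the tumor groups in the fit (0.0395) or without TCM peri-tumor 3 (0.0379). Ccl4, Ccl20 and Ccr3 did not overlap either (adjusted p = 0.107, 0.368 and 0.167). Ccr10 lay the other way. It had 0.486, 0.558, 0.649 and 0.479 CPM in TCM tumor, against 0.254, 0.208, 0.193 and 0.119 CPM in control tumor, without overlap, at 33 counts against 12 and too low for edgeR's test. Cxcl2 had 0.289 to 0.547 CPM in TCM tumor, against 0.514 to 6.81 CPM in control tumor (adjusted p = 0.0622, and 0.0479 without control tumor 3). Of the 10 recruited macrophage markers, 4 were called lower in TCM tumor (Chil3, Ms4a7, Trem2 and Gpnmb), as was 1 of 4 tested neutrophil markers, S100a8. Those shares were 40% and 25%, where 2.72% of all tested genes were lower. Control tumor 4 was the highest control tumor for S100a8, Chil3, Trem2 and Gpnmb, but not for Ms4a7. S100a8 had 34.4 CPM there, 1.41 to 2.91 CPM in the other control tumors and 0.433 to 1.94 CPM in TCM tumor. Marker calls without that library are not given. The macrophage marker sums, mostly Lpl and Cd9, overlapped, at 198 to 361 CPM in TCM tumor and 221 to 387 CPM in control tumor. The part of these cells in the Ccl6 result was not tested. In contrast, Cxcr4 averaged 6.17 ± 3.23 CPM in TCM tumor and 7.40 ± 4.78 CPM in control tumor (log2 fold change -0.27 ± 0.48, adjusted p = 0.773).

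Whether the tumor effect differed between treatments was tested as an interaction in the same edgeR fit. It was called for 1 of the 28 genes in the positive direction, where 0.706% of all tested genes were, and for 0 in the negative direction, where 0.404% were. At an unadjusted p under 0.05 the numbers were 4 and 0, and DESeq2 called 1 and 0 and limma-voom 2 and 0. Shares of all tested genes are not given at these settings. The gene called in the edgeR fit was Cxcl12. Its log2 fold change in tumor was -1.45 in TCM mice and -2.43 in control mice, a difference of 0.99 ± 0.19 (edgeR adjusted p = 0.0211). Without TCM peri-tumor 3 the difference was 0.94 (adjusted p = 0.0523), and with any other single library left out it was still called. Both tissues entered it: Cxcl12 was lower in TCM than in control peri-tumor, as given above, and averaged 59.2 ± 9.49 CPM in TCM tumor and 47.9 ± 4.85 CPM in control tumor (SD, n = 4 each; log2 fold change 0.30 ± 0.13, adjusted p = 0.172).

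Cxcl1, Cxcl14 and Ccl27a, which were called in the tumor comparison of only 1 treatment, did not pass the test of the difference. The differences were 1.12 ± 0.37 for Cxcl1 (edgeR adjusted p = 0.136), 2.28 ± 0.83 for Cxcl14 (adjusted p = 0.169) and 0.83 ± 0.30 for Ccl27a (adjusted p = 0.170). Limma-voom called Cxcl1 (1.31, adjusted p = 0.0448). Without both libraries of control mouse 4, Ccl6 was called beside Cxcl12 (0.95, adjusted p = 0.0449).

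Read as pairs of ligand and receptor, 2 pairs rose together in tumors of both treatments, Cx3cl1 with Cx3cr1 and Ccl2 with Ccr2. In another pair the ligand Cxcl12 fell and the receptor Cxcr4 rose in both treatments. For the Cxcr3 ligands, Cxcl9 rose in both treatments, while Cxcr3 itself had log2 fold changes of 0.57 ± 0.56 in TCM mice and 0.01 in control mice (edgeR adjusted p = 0.470 and 0.986). For the eotaxin axis, Ccl24 fell in both treatments, and Ccr3 was called higher in TCM tumor (1.63 ± 0.51). In control mice Ccr3 had 2.28, 2.01, 2.38 and 1.85 CPM in tumor, against 1.59, 1.57, 0.382 and 1.12 CPM in peri-tumor. These control groups did not overlap and tumor was the higher tissue in 4 of 4 mice, but the log2 fold change of 0.86 ± 0.43 did not pass edgeR's test (adjusted p = 0.117). Limma-voom called Ccr3 higher in control tumor (log2 fold change 1.32, adjusted p = 0.01675). The tumor effect on Ccr3 was not called different between the treatments by edgeR (difference 0.77 ± 0.66, adjusted p = 0.595).

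Of 22 tested genes that act downstream of chemokine receptors, 7 rose and 1 fell in tumor in TCM mice, and 10 rose and 1 fell in control mice. That is 31.8% up and 4.55% down in TCM mice, where 17.3% and 15.6% of all tested genes were called, and 45.5% up and 4.55% down in control mice, where 22.0% and 21.2% were. Grk3, a kinase that switches off activated receptors, rose by 2.51 ± 0.30 in TCM mice (edgeR adjusted p = 1.76e-05) and by 1.81 ± 0.29 in control mice (adjusted p = 1.26e-04). Rgs2, which shortens G protein signals, rose by 2.57 ± 0.59 and 3.10 ± 0.58, and the G protein subunit Gnb1 by 0.57 ± 0.10 and 0.72 ± 0.10, in the same order and on the log2 scale. Of 7 tested atypical receptors and relatives, 1 rose and 0 fell in TCM mice, and 1 rose and 1 fell in control mice. Each 1 of 7 is 14.3%, below the share of all tested genes. Ackr3, the scavenger of Cxcl12, rose in TCM mice (2.84 ± 0.55, edgeR adjusted p = 9.58e-04). In control mice it was not called, at 2.16, 1.80, 4.89 and 2.81 CPM in tumor against 0.764, 1.45, 1.21 and 1.53 CPM in peri-tumor, without overlap. Ccrl2 rose (1.65 ± 0.29, adjusted p = 2.68e-04) and Cmklr1 fell (-0.77 ± 0.28, adjusted p = 0.0372) in control mice. For 0 of the 7 was the tumor effect called different between treatments.

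Of 14 tested proteases and proteoglycans that trim or present chemokines, 3 rose and 3 fell in TCM mice, and 3 rose and 4 fell in control mice. These shares (21.4% up and 21.4% down in TCM mice, 21.4% up and 28.6% down in control mice) were near those of all tested genes. Dpp4, the protease that removes the first residues of Cxcl12 and other chemokines, fell in tumor by 1.49 on the log2 scale in TCM mice (SE 0.15, edgeR adjusted p = 4.91e-06) and by 2.33 in control mice (SE 0.16, adjusted p = 6.04e-08). Mmp12, a macrophage protease that cuts chemokines, rose by 4.12 ± 0.73 in TCM mice and 3.92 ± 0.60 in control mice. In TCM against control, Dpp4 was higher in TCM tumor (0.77 ± 0.15, adjusted p = 0.0103), and the heparan sulfate proteoglycan Sdc3 was lower in TCM peri-tumor (-1.35 ± 0.20, adjusted p = 9.03e-04).

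Lists of pathway and target genes of NF-kB and of interferon-gamma, both known inducers of chemokines, were read in the same fit. Of 17 tested genes of the NF-kB list, 10 rose and 1 fell in tumor in TCM mice, and 10 rose and 2 fell in control mice, so that 58.8% rose in each, against 17.3% and 22.0% of all tested genes. Nfkb2 rose by 1.43 ± 0.10 in TCM mice (edgeR adjusted p = 1.67e-07) and 1.47 ± 0.10 in control mice (adjusted p = 6.04e-08), and Relb by 1.77 ± 0.21 and 1.74 ± 0.21. In TCM against control, 0 rose and 2 fell in tumor (Vcam1 and Nfkb1), or 11.8% down where 2.72% of all tested genes fell. In peri-tumor 0 rose and 6 fell, or 35.3% down where 7.35% of all tested genes fell. Among these 6 were the adhesion genes Icam1 (-1.47 ± 0.23, edgeR adjusted p = 0.00139) and Vcam1 (-1.25 ± 0.25, adjusted p = 0.00589). Of 16 tested genes of the interferon-gamma list, 6 rose and 0 fell in TCM mice, and 4 rose and 0 fell in control mice. In control mice the share that rose, 25%, was near the 22.0% of all tested genes, and in TCM mice it was 37.5% against 17.3%. Both receptor subunits were among the genes that rose in both (Ifngr1 at 1.59 ± 0.27 and 1.49 ± 0.27, Ifngr2 at 0.87 ± 0.12 and 1.36 ± 0.13). In TCM against control, 0 of the 16 were called in tumor, and 2 fell in peri-tumor (Irf8 and Gbp5), or 12.5% against 7.35% of all tested genes.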

How the data were processed

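Tumor and peri-tumor liver RNA of 8 mice was read as stranded mRNA libraries. The deposited table holds the authors' raw counts of reads per gene, whole numbers without scaling, per the file headers. Per the file headers, further deposited files give FPKM for each library, computed by the authors, which matched the counts to within 0.0518% for 13734 genes and served only to compare levels between genes. Both mm9 and mm10 appear as builds in the submitters' processing notes. Aligner, counting tool and strand setting were not stated in the sources used here. From the counts, CPM were computed with TMM factors, and genes past filterByExpr (minimum count 10) were tested with edgeR 4.0.16 (glmQLFit, glmQLFTest, R 4.3.3), 1 mean per group over all 16 libraries with 12 residual degrees of freedom and Benjamini-Hochberg adjustment over 14865 genes. SE was taken as the size of the log2 fold change divided by the root of the F statistic. The fit was tested on simulated data. DESeq2 1.42.0, limma-voom (limma 3.58.1), other factors and filters, a block by mouse and leaving out libraries were the alternatives.

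The genes, the lists of other genes and the alternatives were chosen with earlier results of these data known. A few genes of this kind are not reported here. For each role, comparison and direction, up to 3 called genes with the lowest adjusted p and at least 0.5 CPM in the higher group are given in full, and up to 4 of each other list. Both tissues of a mouse carry 1 animal code in the labels, and their deviations from the group means correlated at 0.235, 0.0433, 0.0913 and 0.114 in TCM mice and 0.155, 0.116, 0.0627 and 0.228 in control mice. No library was a copy of another. Symbols came from the gene IDs (54723 of 54838 matched), positions from the GENCODE annotation of GRCm38, and sequences from RefSeq. Counting intervals and the floor of 3 counts cover counting error only.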

Additional observations from a re-analysis of the deposited data

Results flagged for a closer look

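Within-group outliers were looked for in the 23 genes called in any comparison, 92 groups of 4 libraries in all. A library is named where its gap to the nearest other was, as a share of the range of its group, above Dixon's 95% critical value for 4 samples, and chance flags about 5% of groups. There were 8 such values. Control tumor 4 was the highest of its group for 4 genes: Ccl6 at 45.4 CPM (the others at 7.78 to 11.5), Ccr1 at 11.3 CPM (0.623 to 0.643), Cxcl2 at 6.81 CPM (0.514 to 1.20) and Cxcl3 at 4.66 CPM (0.507 to 0.970). In TCM tumor, Cxcl3 reached 5.35 CPM in TCM tumor 1 (0.186 to 0.890 in the others) and Cxcl9 reached 204 CPM in TCM tumor 2 (21.8 to 46.3). In TCM peri-tumor, Ccl5 was 1.45 CPM in library 1 (0.680 to 0.810 in the others), and Ccl20 was 0.0640 CPM in library 4, a single count against 0 in the other 3.

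The tumor effect differed between treatments for Cxcl12, by the interaction test of edgeR (difference 0.99 on the log2 scale, adjusted p = 0.0211).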

How the results depend on the processing

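Over 26 alternatives, no log2 fold change of a called gene turned its direction. Of 43 calls of a gene in a comparison, 25 were kept in every alternative run, and 18 were lost in at least 1. Counts of called genes moved by over 1.5 times as follows. With a filter of 1 CPM in 4 libraries, 7 genes rose in control tumor, and fewer genes were tested there. DESeq2 called 4 lower in TCM tumor. Limma-voom called 1 lower in tumor in TCM mice and 2 with a positive difference of the tumor effect. With only the groups compared in the fit, 1 was lower in tumor in TCM mice and 4 were lower in TCM peri-tumor. Without both libraries of control mouse 4, 1 was higher in TCM tumor and 2 had a positive difference. Except for the filter, the cause was not tested. Apart from the fit without control mouse 4, no share of all tested genes is given for any alternative. Counts of called genes in the alternatives here and below therefore cannot be set against a background.

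Leaving out 1 library at a time gave 12 to 19 higher and 2 lower in tumor in TCM mice, 11 to 15 higher and 4 to 5 lower in control mice, 0 to 1 higher and 0 to 2 lower in TCM tumor, 0 higher and 3 to 9 lower in TCM peri-tumor, and 0 to 1 positive and 0 negative differences.

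With the mouse as a block, the tumor counts were 15 higher and 2 lower in TCM mice, 13 higher and 4 lower in control mice, and 1 positive difference; the calls it changed are given in the text above (Cxcl2 and Ccr1 in control mice, Ccr3 in TCM mice, Ccl9 and Cxcl10), and it changed no other call. A replicate block by number, which pairs no animals across treatments, gave 1 lower in TCM tumor and 5 in TCM peri-tumor. Depth limits the 12 untested genes, where 1 count was worth up to 0.0756 CPM.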
